A study of Mus musculus with 6 samples.

Results

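Fatty acid synthesis and desaturation was followed through 10 genes: Acly, Acaca, Fasn, Scd1, Scd2, Elovl6, Fads1, Fads2, Me1 and Acsl3. They were chosen by name, for the steps from citrate to desaturated acyl-CoA, and with earlier results of these data known. All 10 were present among the 30315 genes of the table. The data came from RNA-Seq of primary renal tubular epithelial cells (TECs), that is, cultured cells taken from the kidney tubules of C57BL/6 mice. Transcripts were measured in 3 libraries from cells given siSox9, a small interfering RNA against the transcription factor Sox9, and in 3 libraries from cells given the control siRNA, siNC. In both groups the siRNA was transfected 12 h before hypoxia/reoxygenation (H/R), which was 6 h at 1% oxygen in glucose-free medium followed by 18 h of reoxygenation, so that every library came from injured cells and no normoxic library was compared. The question of the comparison was which transcripts changed when Sox9 was silenced during H/R, and here it was asked of the lipogenic enzymes. The paper lists no other siRNA against Sox9. Effects of this siRNA on other transcripts therefore cannot be told apart from effects of lowering Sox9. The labels do not say that the replicates were separate cultures or animals, so the p-values measure only the spread between these libraries.

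Cells build fatty acids in the cytosol from acetyl-CoA that ATP citrate lyase releases from exported citrate. Acetyl-CoA carboxylase and fatty acid synthase then make palmitate with reducing power from NADPH, and elongases, desaturases and acyl-CoA synthetases lengthen, desaturate and activate the chains. The pathway is known as a target of SREBP transcription factors. In the kidney, tubule cells are best known for burning fatty acids, and lipid accumulation is a recognised feature of tubular injury.

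Each library held 23893197 to 25725743 reads as recovered from the FPKM values (reads per length of exon, scaled to the size of the library), and 1 read in a gene with 1 kb of exons was worth 0.0389 to 0.0419 FPKM. Sox9 was at 8.93, 8.61 and 9.07 FPKM in the siSox9 libraries and at 25.7, 26.5 and 25.6 FPKM in the siNC libraries. The siSox9 mean was 34.2% of the siNC mean, so the transcript was lowered and not removed. The epithelial markers Krt8, Krt18, Cdh1, Epcam and Pax8 were present in all libraries, but Slc34a1, the phosphate transporter of the proximal tubule, was recovered at 1 read in 2 siSox9 libraries and at 0 in the other 4 libraries. Of the 12 tubule markers, 10 were tested and 2 rose by limma. Of all genes tested, limma called 12.8% higher and 17.6% lower. Cdh16, a kidney cadherin, was at 128% of the siNC mean (log2 fold change 0.36, adjusted p = 0.000307), and Havcr1, the injury marker KIM-1, was at 114% (0.18, adjusted p = 0.0366). Pax2 did not pass by limma (-0.17, adjusted p = 0.0937) and was lower by limma voom on recovered reads (adjusted p = 0.0283). The summed level of the 12 markers was 4126 to 4292 FPKM with siSox9 and 3961 to 4173 FPKM with siNC. Of 8 adipocyte markers, 7 were in the table and none reached a mean of 1 FPKM; their summed level was 0.767 to 0.806 FPKM with siSox9 and 0.829 to 0.835 FPKM with siNC, and Cfd, which encodes adipsin, was at 0 in all 6 libraries. Summed markers of macrophages and leukocytes were at 104 to 114 FPKM with siSox9 and 92.6 to 99.1 FPKM with siNC, mostly from Lyz2, the 1 of 4 tested that passed the threshold. Fibroblast and pericyte markers summed to 6.45 to 7.95 against 7.99 to 9.09 FPKM, and endothelial markers to 2.91 to 3.10 against 3.22 to 4.12 FPKM. The part of these markers and cell types in the differences below was not tested, and in bulk RNA a change in the mixture of cells and a change within the cells cannot be told apart.

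Acly, Fasn and Me1 were higher with siSox9, by 13.1% to 15.3%, and the other 7 genes did not pass the threshold. The 3 that rose encode the enzyme that supplies cytosolic acetyl-CoA, the synthase that builds palmitate from it, and a malic enzyme that makes NADPH for the synthase. The test was limma on log2(FPKM + 1) over the 12009 genes that averaged 1 FPKM or more, with an adjusted p (Benjamini-Hochberg) under 0.05 as the threshold. It called 30.4% of all genes tested, 12.8% higher and 17.6% lower. With 3 of 10 called, the lipogenic genes were called about as often as genes in general. That background moved with the setting: limma called 3650 genes here, 2424 without siSox9 replicate 2 and 2549 with TPM. In those settings 3 lipogenic genes were called, while 4 were called without siNC replicate 1 and without siNC replicate 2. Of the 3650 genes, 1532 were higher and 2118 lower, which became 1959 higher and 1765 lower with median-centred values. None of the 10 was called lower. At an unadjusted p under 0.05 limma gave 4 of the 10, 1 of them lower. The share of all genes at that unadjusted p was not counted, but it cannot be under the 30.4% called after adjustment. A second test on recovered reads, limma voom, also called 1 of the lipogenic genes lower. The median log2 fold change was 0.058 for the 10 genes and -0.014 for all genes tested, of which the 5th to 95th percentiles ran from -0.39 to 0.28. All 10 genes lay inside that range.

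A promoter of each of the 3 genes that rose is printed here, with that of Elovl6, the 1 lipogenic gene whose siSox9 libraries all lay below the siNC libraries. RefSeq (GRCm38.p6) gave promoter windows for 7 of the 10 genes, and Me1 had a second start inside the gene, which made 8 windows in all. The only Acaca window, chr11:84195188-84195487, also lies inside its gene, so the 5′ end of Acaca was not searched. Of Me1, the window nearest the 5′ end of the gene is shown. Each window runs 5′ to 3′ from 250 bases before the transcription start to 50 bases after it. Capitals mark matches, on either strand, to a CCAAT box (CCAAT), a GC box (GGGCGG) or the antioxidant response element core (TGACNNNGC). The Acly window is chr11:100527951-100528250 on the minus strand, the Fasn window chr11:120824498-120824797 on the minus strand, the Me1 window chr9:86695865-86696164 on the minus strand, and the Elovl6 window chr3:129532136-129532435 on the plus strand.
Acly: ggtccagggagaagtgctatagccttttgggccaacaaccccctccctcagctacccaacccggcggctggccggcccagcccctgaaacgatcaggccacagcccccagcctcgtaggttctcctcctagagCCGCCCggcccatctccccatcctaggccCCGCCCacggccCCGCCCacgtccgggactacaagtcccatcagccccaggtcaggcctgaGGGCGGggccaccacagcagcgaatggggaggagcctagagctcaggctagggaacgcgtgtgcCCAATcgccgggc
Fasn: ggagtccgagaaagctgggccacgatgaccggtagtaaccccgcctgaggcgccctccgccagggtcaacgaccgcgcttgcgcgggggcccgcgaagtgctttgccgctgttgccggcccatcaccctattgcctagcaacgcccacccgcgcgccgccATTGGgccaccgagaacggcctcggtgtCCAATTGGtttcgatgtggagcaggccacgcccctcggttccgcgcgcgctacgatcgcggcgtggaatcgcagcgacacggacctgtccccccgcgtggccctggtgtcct
Me1: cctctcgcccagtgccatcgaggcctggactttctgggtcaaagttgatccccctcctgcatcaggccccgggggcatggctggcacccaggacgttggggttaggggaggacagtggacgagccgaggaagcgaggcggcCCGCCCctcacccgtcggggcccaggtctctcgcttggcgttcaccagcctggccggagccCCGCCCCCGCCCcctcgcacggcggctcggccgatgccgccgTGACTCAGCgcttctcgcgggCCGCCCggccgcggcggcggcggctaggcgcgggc
Elovl6: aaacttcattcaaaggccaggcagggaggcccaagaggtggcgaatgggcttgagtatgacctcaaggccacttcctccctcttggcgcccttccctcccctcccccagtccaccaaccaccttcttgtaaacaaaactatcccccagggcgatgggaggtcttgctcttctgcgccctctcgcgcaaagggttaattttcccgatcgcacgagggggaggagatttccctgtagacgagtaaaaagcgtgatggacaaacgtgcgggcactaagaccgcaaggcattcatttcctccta

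The Acly window held 4 GC boxes and 1 CCAAT box. The Fasn window held 3 CCAAT boxes, the last of which overlap each other on opposite strands, and no GC box. The Me1 window shown held 4 GC boxes and 1 antioxidant response element core, while its second window, chr9:86687228-86687527, held 1 CCAAT box and neither of the others. The Elovl6 window matched none of the motifs searched. Of the 32851 promoters in the RefSeq table, 37.4% held a CCAAT box, 35.7% a GC box and 12.4% the antioxidant response element core, against 4, 4 and 1 of the 8 lipogenic windows. A sterol regulatory element core (TCACNCCAC) was in 1.24% of all promoters and an E-box (CACGTG) in 7.15%, and neither was in any of the 8 windows. With shares that low, none in 8 windows is the likely outcome. Only these exact letters were searched, so nothing follows about SREBP sites in these genes. These letters describe the windows only, since no binding was measured here.

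Levels of the 10 genes spanned a wide range. Averaged over the 6 libraries and scaled to exon length, Fads2 was at 101 FPKM, Scd2 at 92.3 FPKM and Acly at 73.6 FPKM, and the ranges of Fads2 and Scd2 over libraries overlapped. Me1, Fads1 and Fasn lay close together at 31.2, 30.8 and 30.2 FPKM, and their ranges over libraries overlapped. Scd1 was at 15.7 FPKM, Acsl3 at 6.17, Acaca at 4.08 and Elovl6 at 4.05. The ranges of Acaca and Elovl6 overlapped as well. The spread within a group, as the SD over the mean, ran from 0.541% for Me1 to 6.54% for Fads2 with siSox9, and from 0.662% for Acly to 10.8% for Elovl6 with siNC. The FPKM values rest on exon lengths, so levels of genes with several transcripts are approximate. The levels of Acaca and Me1 are less certain still. Of the 50-base windows in their longest annotated transcripts, 52.6% and 32.8% also occur in other genes.

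**Figure D1:**
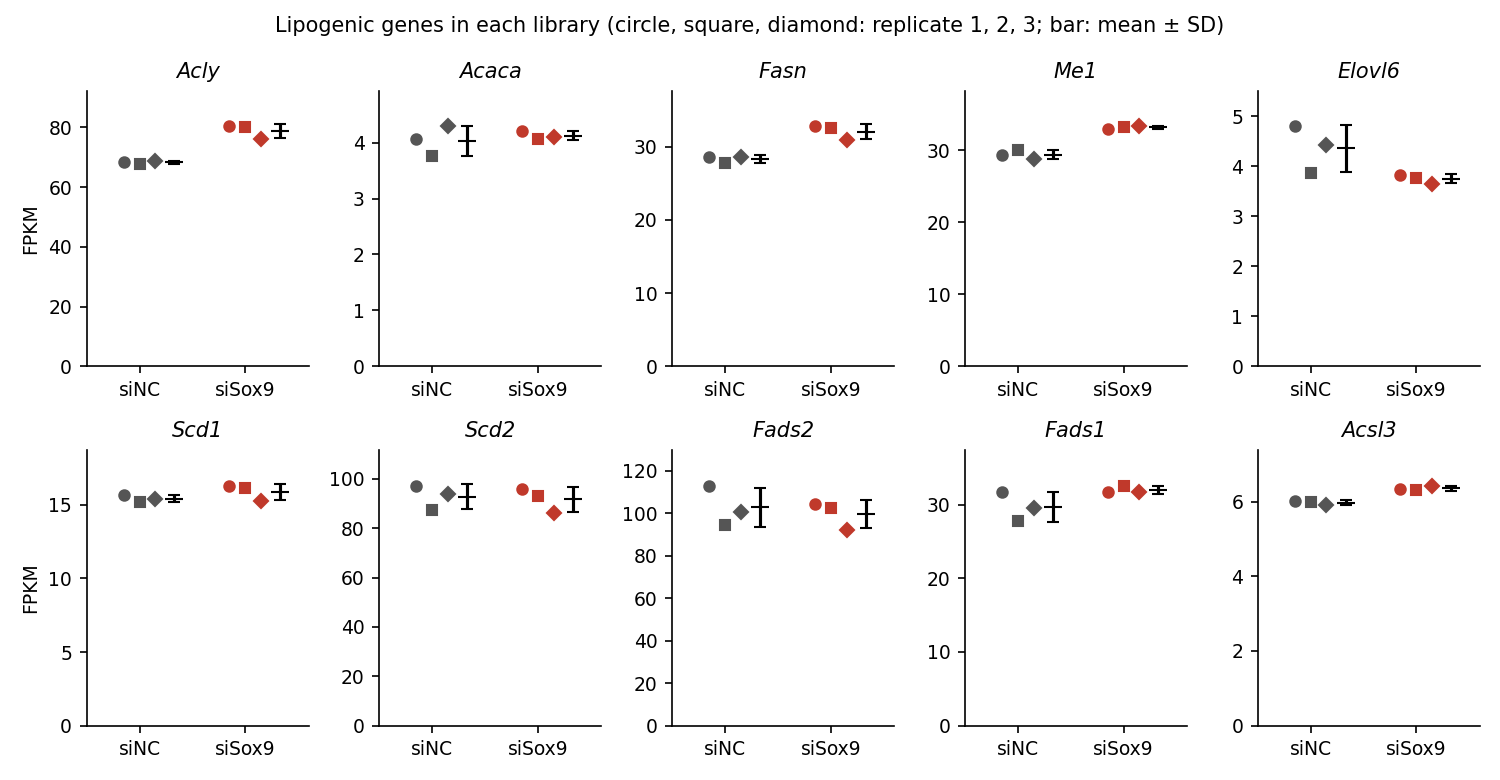
FPKM (y axis, from 0, each panel with its own scale) of the 10 lipogenic genes in the siNC and siSox9 groups, with 1 point per library and the mean ± SD over 3 libraries. The siSox9 points stand above all siNC points for Acly, Fasn, Me1 and Acsl3 and below them for Elovl6, and the groups overlap for the other 5 genes.

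Acly (ENSMUSG00000020917, chr11:100476353-100528000, minus strand, GRCm38) encodes ATP citrate lyase, which splits cytosolic citrate into acetyl-CoA and oxaloacetate. It was at 80.3, 80.1 and 76.0 FPKM with siSox9 and at 68.5, 67.8 and 68.7 FPKM with siNC. All 3 siSox9 libraries were above the highest siNC library. The means were 78.8 ± 2.44 and 68.4 ± 0.453 FPKM (SD, n = 3 each), 15.3% higher with siSox9, from 9585 to 10910 recovered reads against 8649 to 9014. The log2 fold change was 0.20 (SE 0.03, adjusted p = 0.00353 by limma). The exact two-sided permutation test on the 6 values gave p = 0.1, which is the smallest that 3 libraries against 3 allow. Acly was called under all 14 other settings of the analysis.

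Acaca (ENSMUSG00000020532, chr11:84129672-84401651, plus strand) encodes acetyl-CoA carboxylase 1, which makes malonyl-CoA and is the committed step of synthesis. It was at 4.21, 4.05 and 4.10 FPKM with siSox9 and at 4.07, 3.75 and 4.29 FPKM with siNC. The siSox9 libraries lay within the range of the siNC libraries. The log2 fold change was 0.026, with a 95% interval from -0.09 to 0.15 and an adjusted p of 0.730 by limma. Of the 50-base windows in its longest annotated transcript, 52.6% also occur in the annotated gene Gm5182. How reads shared with it were counted is not given in the sources used here.

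Fasn (ENSMUSG00000025153, chr11:120805846-120824547, minus strand) encodes fatty acid synthase, the multifunctional enzyme that extends acetyl-CoA with malonyl-CoA to palmitate. Its levels were 32.8, 32.6 and 30.9 FPKM with siSox9 and 28.6, 27.8 and 28.7 FPKM with siNC. Again the groups did not overlap, and replicate 3 was the lowest of the siSox9 libraries, as for Acly. The means were 32.1 ± 1.03 and 28.3 ± 0.493 FPKM (SD, n = 3 each), 13.2% higher with siSox9. The log2 fold change was 0.17 (SE 0.03, adjusted p = 0.00903 by limma), and the exact permutation p was 0.1.

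Me1 (ENSMUSG00000032418, chr9:86581371-86695953, minus strand) encodes the cytosolic malic enzyme, which turns malate into pyruvate and yields NADPH. It was at 32.9, 33.2 and 33.3 FPKM with siSox9 and at 29.3, 30.0 and 28.7 FPKM with siNC. The siSox9 libraries were nearly equal and all above the siNC libraries. The means were 33.1 ± 0.179 and 29.3 ± 0.622 FPKM (SD, n = 3 each), 13.1% higher with siSox9, or 0.17 on the log2 scale (SE 0.03, adjusted p = 0.00487 by limma), with an exact permutation p of 0.1. Of the 50-base windows in its longest annotated transcript, 32.8% also occur in other genes, among them Gm7049, Gm48795 and Gm7329. Its level is therefore less certain than that of Acly or Fasn.

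Elovl6 (ENSMUSG00000041220, chr3:129532355-129638495, plus strand) encodes the elongase that lengthens palmitate to stearate. It was at 3.82, 3.77 and 3.64 FPKM with siSox9 and at 4.79, 3.86 and 4.42 FPKM with siNC. All siSox9 libraries were below the lowest siNC library, by a narrow margin to siNC replicate 2. The difference of the means was -14.0%, with a log2 fold change of -0.17 (95% interval -0.33 to -0.012) and an adjusted p of 0.0982 by limma, which did not pass. Without siNC replicate 2 the log2 fold change was -0.24 with an adjusted p of 0.0242, and limma voom on the recovered reads, 560 to 632 against 599 to 765, gave -0.21 with an adjusted p of 0.0372. The call for Elovl6 therefore depended on 1 library and on the test, and it leaned in the direction opposite to that of Acly, Fasn and Me1.

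Of the desaturases, none passed the threshold. Scd1 (ENSMUSG00000037071, chr19:44394451-44407709, minus strand) and Scd2 (ENSMUSG00000025203, chr19:44293676-44306864, plus strand) encode stearoyl-CoA desaturases, which place the first double bond in saturated chains. Scd1 was at 16.3, 16.1 and 15.3 FPKM with siSox9 and at 15.7, 15.2 and 15.4 FPKM with siNC. Scd2 was at 96.0, 93.0 and 86.3 FPKM with siSox9 and at 97.3, 87.4 and 93.7 FPKM with siNC. The groups overlapped for both genes. The log2 fold changes were 0.040 for Scd1 (95% interval -0.043 to 0.12, adjusted p = 0.432 by limma) and -0.016 for Scd2 (95% interval -0.14 to 0.11, adjusted p = 0.849 by limma), whose sign turned with TPM or median-centred values. The paralogs share 4.66% and 4.01% of their 50-base windows with other Scd genes.

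Fads2 (ENSMUSG00000024665, chr19:10064164-10101503, minus strand) encodes the delta-6 desaturase and Fads1 (ENSMUSG00000010663, chr19:10182888-10196870, plus strand) the delta-5 desaturase of polyunsaturated fatty acid synthesis. Fads2 was at 104.5, 102.5 and 92.4 FPKM with siSox9 and at 113.0, 94.7 and 100.6 FPKM with siNC, where siNC replicate 1 was the highest of all. Fads1 was at 31.7, 32.6 and 31.7 FPKM with siSox9 and at 31.7, 27.7 and 29.5 FPKM with siNC. Here siNC replicate 1 reached the siSox9 level while the other siNC libraries stayed below it. The log2 fold change of Fads2 was -0.040 (95% interval -0.21 to 0.13, adjusted p = 0.718 by limma) and that of Fads1 was 0.11 (95% interval -0.0084 to 0.22, adjusted p = 0.143 by limma). Without siNC replicate 1 the value for Fads1 was 0.16 with an adjusted p of 0.0245, and that for Fads2 was 0.030, with its sign turned.

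Acsl3 (ENSMUSG00000032883, chr1:78657825-78707743, plus strand) encodes a long-chain acyl-CoA synthetase found on lipid droplets and the endoplasmic reticulum. It was at 6.34, 6.30 and 6.43 FPKM with siSox9 and at 6.03, 5.99 and 5.91 FPKM with siNC. The groups did not overlap, yet the difference was small, 6.38%, and the log2 fold change of 0.077 (95% interval -0.0021 to 0.16) had an adjusted p of 0.127 by limma. Exons of Utp14b on the same strand cover 5.6% of its exons.

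In all, the groups did not overlap for 5 of the 10 genes, 4 with siSox9 above and 1 below, while 46.3% of all genes tested had groups that did not overlap. Reads could be recovered for 6 of the 10 genes, and limma voom called 4 of these, Acly, Fasn and Me1 higher and Elovl6 lower, against 35.4% of the genes it tested. Whether the changes of the 10 genes differed from each other was not tested. The libraries also differed within groups. Replicate 2 had the lowest siNC value for 8 of the 10 genes, all but Me1 and Acsl3, and replicate 1 had the highest siNC value for 6. Over genes with recovered reads, siNC replicate 1 differed most within its group. Its mean chi-square was 6.91 to replicate 2 and 7.25 to replicate 3, against 2.72 between siNC replicates 2 and 3. Among the siSox9 libraries, replicate 1 was highest for 7 of the genes and replicate 3 lowest for 6.

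**Figure D2:**
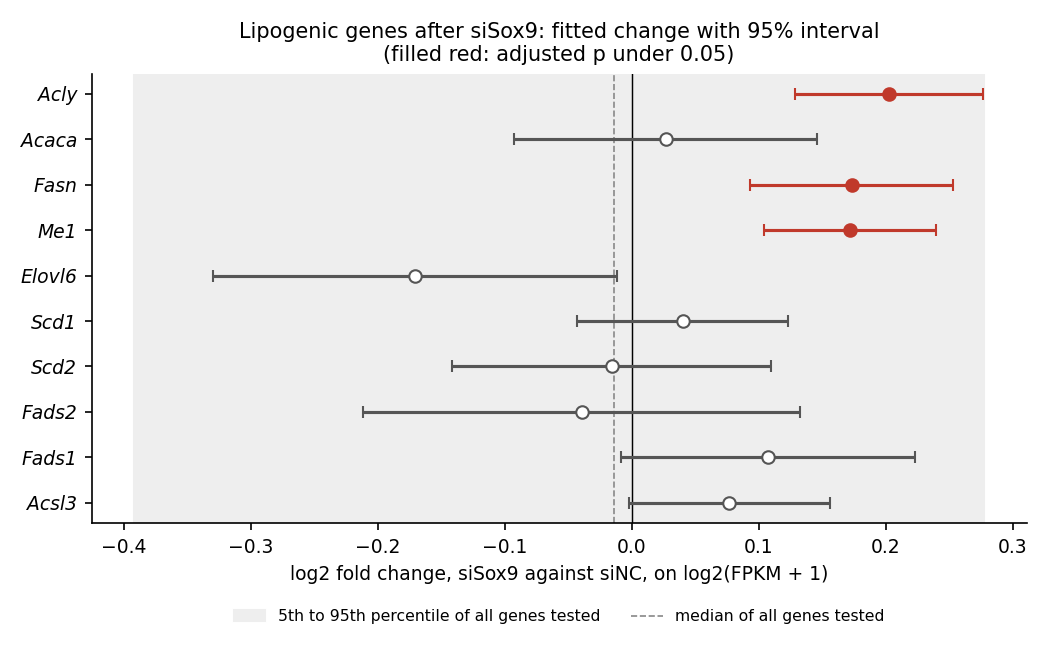
Log2 fold change of each lipogenic gene with siSox9 against siNC (x axis, on log2(FPKM + 1)), with the 95% interval from limma. Filled red points are the 3 genes past the threshold, Acly, Fasn and Me1 at 0.17 to 0.20, and the intervals of the others reach or cross 0 except that of Elovl6, which ends at -0.012.

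Of 29 other genes of fatty acid synthesis, elongation and desaturation, 27 were in the table and 19 were tested. Only 1 rose and 6 fell, 12 did not pass and 8 were under the minimum level. Of all genes tested, 12.8% were called higher and 17.6% lower. With TPM, 1 gene of this list was higher and 2 were lower, so its count of falls dropped from 6 to 2. Over all genes tested, the count called lower went from 2118 to 1332 under that scaling. The gene that rose was Slc25a1, the mitochondrial carrier that exports the citrate on which ATP citrate lyase acts. It was at 49.7, 50.5 and 46.3 FPKM with siSox9 and at 35.7, 36.3 and 37.2 FPKM with siNC, a log2 fold change of 0.41 (adjusted p = 0.000502 by limma). Every siSox9 library was above every siNC library. The largest falls were those of Hacd4, a dehydratase of the elongation cycle, by -0.45 on the log2 scale (adjusted p = 0.000803 by limma), Tecr, the reductase that ends that cycle, at -0.27 (adjusted p = 0.000716), and Acsl1, a long-chain acyl-CoA synthetase, at -0.27 (adjusted p = 0.0148). The mean of Hacd4 was 67.0% of that with siNC, the mean of Tecr 82.7% and the mean of Acsl1 72.5%. Acsl1 was low, at 1.17 against 1.62 FPKM, so the 1 added to FPKM made its log2 fold change too small. By limma voom the log2 fold changes were -0.58 for Hacd4, -0.27 for Tecr and -0.46 for Acsl1. Exons of Focad on the opposite strand overlap 11.0% of the Hacd4 exons, and the strand of counting is not given in the sources used here. Exons of Gm45244 on the opposite strand overlap 9.9% of the Acsl1 exons, and 10.8% of the 50-base windows of Tecr occur elsewhere in the annotation. The median log2 fold change of the list was -0.022.

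Of 9 other genes around NADPH supply, 8 were tested. Of these 4 rose, 1 fell and 3 did not pass, with a median of 0.096. The shares over all genes tested were 12.8% higher and 17.6% lower. Pgd and G6pdx encode the dehydrogenases of the pentose phosphate pathway, which make NADPH. Pgd was at 49.3 FPKM with siSox9 and 39.7 FPKM with siNC (log2 fold change 0.31, adjusted p = 0.00071 by limma), and G6pdx rose by 0.20 on the log2 scale (adjusted p = 0.0052 by limma), with 13.6% of its exons overlapped by Ikbkg. The isocitrate dehydrogenases moved in opposite directions: cytosolic Idh1 was higher (9.82 against 7.64 FPKM, log2 fold change 0.33, adjusted p = 0.00367 by limma) and mitochondrial Idh2 lower (16.6 against 21.6 FPKM, -0.36, adjusted p = 0.00299). Taldo1, a transaldolase of the non-oxidative branch that itself makes no NADPH, was at 110.0, 111.4 and 116.1 FPKM with siSox9 and at 55.2, 57.9 and 60.9 FPKM with siNC. Its siSox9 mean was 194% of the siNC mean (log2 fold change 0.94, adjusted p = 5.9e-05 by limma), and 10.9% of its 50-base windows also occur in Gm17823.

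Of 17 regulators of lipogenic transcription, 13 were tested, of which 3 rose and 10 did not pass, with a median of 0.092. Over all genes tested, 12.8% were called higher and 17.6% lower. Srebf1 and Srebf2 encode the SREBP factors, and neither passed. Srebf1 was at 13.4, 13.5 and 13.0 FPKM with siSox9 and at 14.7, 12.3 and 13.4 FPKM with siNC, with a log2 fold change of -0.016 (95% interval -0.16 to 0.13). Srebf2 had means of 49.9 and 47.3 FPKM and a log2 fold change of 0.075 (95% interval -0.019 to 0.17). Scap, which escorts SREBP to the Golgi, had a log2 fold change of -0.043 (95% interval -0.14 to 0.052). Insig1, which holds SCAP in the endoplasmic reticulum and is itself a known SREBP target, was the regulator with the greatest rise. It was at 20.1, 19.2 and 19.6 FPKM with siSox9 and at 12.0, 13.2 and 12.8 FPKM with siNC, 155% of the siNC mean (log2 fold change 0.60, adjusted p = 0.000167 by limma). The groups were well apart. Prkaa1 and Prkaa2, the catalytic subunits of AMP-activated kinase, which inhibits acetyl-CoA carboxylase, rose with log2 fold changes of 0.31 (adjusted p = 0.000519 by limma) and 0.22 (adjusted p = 0.0149). Mlxipl, which encodes ChREBP, and Nr1h3, which encodes LXR alpha, were under the minimum of 1 FPKM, at 0.120 and 0.525 FPKM with siSox9 and 0.149 and 0.453 FPKM with siNC.

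Of 20 genes of glycerolipid assembly and lipid droplets, 15 were tested, of which 4 rose, 3 fell and 8 did not pass, with a median of 0.0062. The shares over all genes tested were 12.8% higher and 17.6% lower. Plin2, the coat protein of lipid droplets in most cells, was at 237, 240.0 and 258 FPKM with siSox9 and at 186, 207 and 198 FPKM with siNC. All siSox9 libraries were above the siNC libraries, and the log2 fold change was 0.31 (adjusted p = 0.00387 by limma). Lpin1, a phosphatidate phosphatase, rose from 1.32 to 1.84 FPKM (log2 fold change 0.29, adjusted p = 0.0276 by limma). Agpat5 and Agpat4, acyltransferases of the glycerolipid pathway, fell to 62.1% and 75.9% of the siNC means (log2 fold changes -0.50 and -0.34, adjusted p = 0.000526 and 0.00188 by limma). These low genes are affected by the 1 added to FPKM. By limma voom the log2 fold changes were 0.48 for Lpin1, -0.69 for Agpat5 and -0.40 for Agpat4. Exons of Gm35934 overlap 18.9% of the Agpat5 exons. Leaving out single libraries or setting another minimum level lowered the count of this list from 7 to as few as 4.

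**Figure D3:**
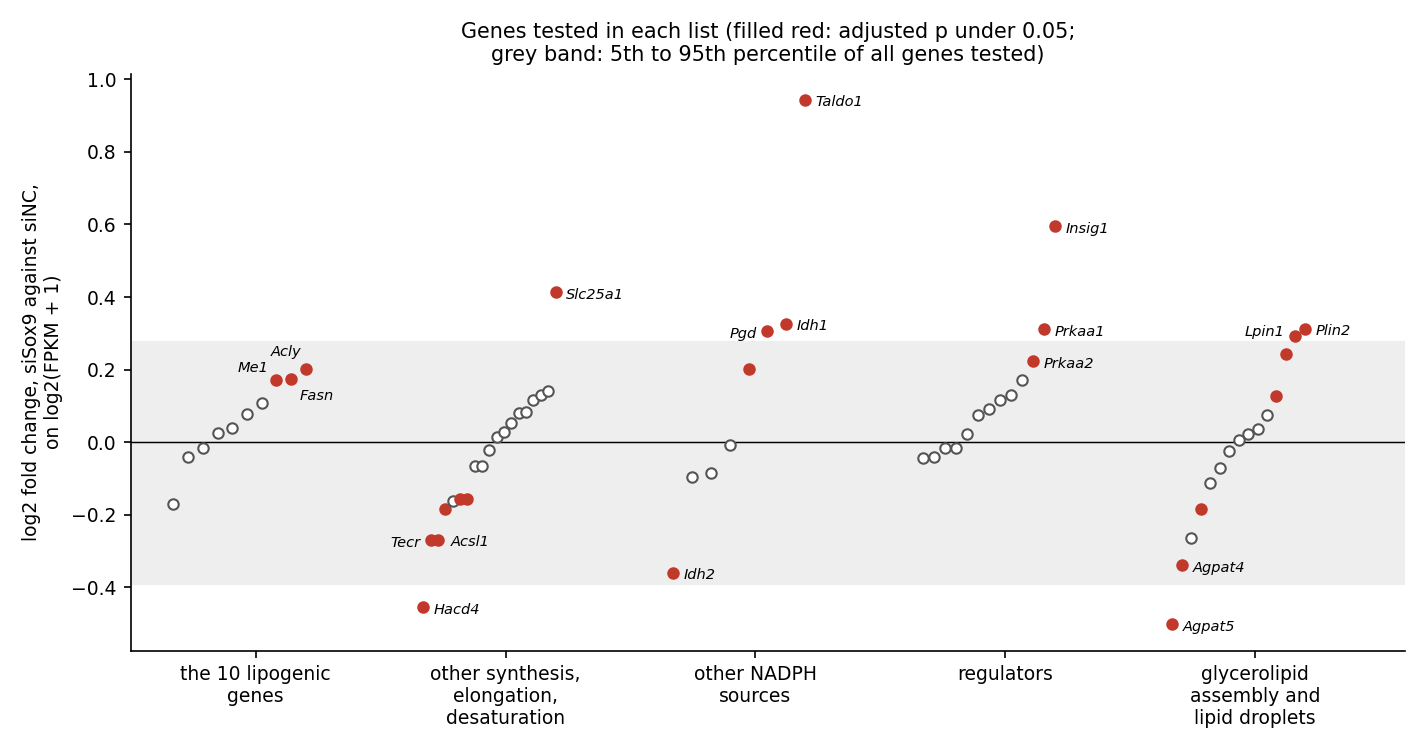
Log2 fold change with siSox9 against siNC (y axis, on log2(FPKM + 1)) of every tested gene in the 10 lipogenic genes and the 4 wider lists, with filled red points past the threshold and a grey band from the 5th to the 95th percentile of all genes tested, -0.39 to 0.28. Taldo1, Insig1, Slc25a1, Idh1, Plin2, Prkaa1, Pgd and Lpin1 stand above the band and Hacd4 and Agpat5 below it, and the 10 lipogenic genes stay within it.

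Fads2 had the highest mean of the lipogenic genes. The genes most like it over the 6 libraries, as Pearson r of log2(FPKM + 1), were Add1 (0.990), Pcgf2 (0.989) and n-R5s67 (0.989). These were the highest correlations among all other genes tested, and over 6 libraries such values can arise by chance. Add1 ran only from 29.7 to 31.0 FPKM, and n-R5s67 was low, at 1.09 to 3.18 FPKM. This is a description over libraries of both groups that share their depth and scaling.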

How the data were processed

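RNA-Seq of mouse primary renal TECs after H/R was analysed in 6 libraries, 3 siSox9 and 3 siNC. The authors deposited FPKM values for 30315 genes. The submitters' processing notes name mm9, HISAT2 2.1.0, Bowtie2 2.2.3 and TopHat2 without their roles, but 93.3% of the genes in GENCODE M21 had the same position there, which is GRCm38. The columns of siSox9 carry the name of an siRNA other than the control. Whole reads were recovered with M21 exon lengths for 93.3% of values, within 0.02 reads. They could not be recovered for Scd1, Scd2, Fads1 and Fads2. The chi-square between libraries was larger than sampling noise in every pair, so none was counted as a duplicate.

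Groups were compared with limma 3.58.1 in R 4.3.3 (lmFit, then eBayes with its trend option). Values were log2(FPKM + 1) of genes that averaged 1 FPKM or more. The p-values were adjusted by Benjamini-Hochberg over all 12009 genes, called under 0.05, and no replicate block was used. The pseudocount makes a fold change of a low gene too small. Exact two-sided permutation tests, Pearson correlations and motif searches used Python 3.11.15 with scipy 1.17.1. The script was tested on simulated reads with a fixed spread between libraries. It called 100 of 100 genes with a true log2 change of 1 and 91 of 99 with 0.5, in the right direction. Of 10161 unchanged genes it called 9. Changes as small as those of the lipogenic genes were not simulated. The lipogenic genes and the wider lists were chosen with earlier results of these data known. From each wider list, up to 4 genes with the largest change past the threshold and groups that did not overlap are named, besides the regulators Srebf1, Srebf2, Scap, Insig1, Mlxipl and Nr1h3. G6pdx was named after its values were seen. Alternatives were a pseudocount of 0.1, no minimum, 5 FPKM as the minimum, values as TPM, centring on the median, quantile normalization, the replicate block and leaving out each library. Limma voom on recovered reads was added after seeing the data.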

Additional observations from a re-analysis of the deposited data

How the results depend on the processing

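Acly, Fasn and Me1 stayed past the threshold, and higher with siSox9, under all 14 alternatives. The log2 fold change ran from 0.153 to 0.233 for Acly, 0.157 to 0.206 for Fasn and 0.155 to 0.205 for Me1. The lowest adjusted p, by limma voom, was 0.000225 for Acly, 0.000948 for Fasn and 0.0013 for Me1. The highest, by limma, was 0.0218, 0.0428 and 0.0269 in the same order. The count of lipogenic genes called was 3 or 4 throughout. Elovl6 passed with limma voom (-0.21) and without siNC replicate 2 (-0.24, range -0.24 to -0.11 over libraries left out), and Fads1 without siNC replicate 1 (0.155, range 0.061 to 0.155). The small values of 3 genes turned sign: Scd2 with TPM (0.013), median-centred values (0.011) and libraries left out (-0.058 to 0.027), Fads2 with libraries left out (-0.096 to 0.030) and Acaca likewise (-0.015 to 0.062). At a minimum of 5 FPKM, Acaca and Elovl6 give no value, and voom gives none for the genes without recovered reads.

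Over all genes, the count called was 3650. As each library was left out, it ran from 2424 (without siSox9 replicate 2) to 3654 (without siNC replicate 1). TPM gave 2549 genes. The split of 1532 higher and 2118 lower became 1959 and 1765 with median-centred values, which moved the median of all genes from -0.014 to 0.012. In the wider lists, the glycerolipid list gave 4 with no minimum, with 5 FPKM and with the block, and 4 to 6 with libraries left out, against 7. The synthesis list gave 3 with TPM (1 higher, 2 lower) against 7 (1 higher, 6 lower). The regulators gave 6 with median-centred values, 5 with voom and 3 to 5 with libraries left out, against 3. The cause was not tested.

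The replicate numbers were not taken to pair the libraries, since the deviations of same-numbered libraries correlated at 0.0649, -0.0504 and 0.0078, and not every library correlated best with its own number. With the replicate block, 3262 genes and again 3 lipogenic genes were called. A detection limit for differences as small as those of the lipogenic genes was not measured.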
